A study of Mus musculus with 8 samples.

Results

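Some mouse genes lie so close together that the end of one nearly touches the end of the next. From 21631 protein-coding RefSeq genes on chromosomes 1 to 19 and X, 2009 neighbouring pairs did not overlap and had facing ends at most 1000 bp apart. They were 10.3% of the 19451 neighbouring pairs that did not overlap, and 3635 genes (16.8%) belonged to at least 1 of them. The region of a pair was its gap with 1 kb on each side, and a library held a pair if a peak overlapped that region by at least 1 bp. The comparison set was 22369 isolated gene ends, each with no other protein-coding gene within 10 kb and with a window of 1 kb on each side. The choice of pairs used gene positions only. The median gap was 248 bp, with quartiles of 90 and 567 bp. Strand was known for 79.9% of genes, which gave 568 divergent pairs (both starts face the gap), 444 tandem pairs (same direction), 427 convergent pairs (both 3′ ends face the gap) and 570 pairs of unknown orientation.

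When the starts of a divergent pair lie this close, the stretch between them can serve as promoter for both genes and is called a bidirectional promoter. Such promoters are often CpG islands, and their genes often have housekeeping roles in DNA repair, mitochondria or translation. Acetylation of histone H3 at lysine 9 (H3K9ac) marks the nucleosomes at the starts of active genes. Gene 3′ ends usually lack it.

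Cerebella of C57BL/6 mice aged 9 weeks were studied by ChIP-seq, the sequencing of DNA from chromatin precipitated with an antibody, here one to H3K9ac. There were 4 libraries from mice heterozygous for a 266Q knock-in, described as symptomatic, and 4 from wild type littermates. The 266Q knock-in is a model of spinocerebellar ataxia type 7 (SCA7), in which ataxin-7 has an expanded polyglutamine tract, and ataxin-7 is a subunit of the histone acetyltransferase complex SAGA. The labels give no separate animal for each replicate, so the spread that p-values rest on is that among libraries and could be technical. The lists of replicates 1 and 2 held 7735 to 11409 peaks of median width 1065 to 1246 bp, and those of replicates 3 and 4 held 1266 to 5571 peaks of 132 to 148 bp. Libraries are called KI1 to KI4 (knock-in) and WT1 to WT4 (wild type) by replicate number, and unless said otherwise values are listed in that order. Because of these list lengths, values within replicates 1 and 2 stand beside the pooled ones. Read depth is unknown, and the intervals below (exact Clopper-Pearson, 95%) cover counting error only. The tissue was whole cerebellum, so fewer cells with the mark and less of the mark per cell cannot be told apart. Of the markers of cerebellar granule neurons, 3 belonged to a close pair. A peak lay at Grin2c/Fdxr and Cbln3/Khnyn and none at Slc17a7/Gfy, whose facing ends are 3′ ends. No Purkinje marker belonged to a pair, and the 5 pairs with a glial, microglial or vascular marker had no peak in any library. Of these markers, Mog, Gfap and Tek also face the gap with their 3′ ends, and the strand of Csf1r and Pdgfrb was unknown. These pairs therefore do not show whether the starts of those genes had a peak.

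The stretches between the starts of 9 divergent pairs show what such a gap looks like at pairs with a peak in nearly every library, in knock-in libraries alone, and in none. They are RefSeq sequence of GRCm38.p6, plus strand, 5′ to 3′, from the base after the end of the left gene to the base before the start of the right gene. Capitals mark matches, on either strand, to the letters known for ETS factors, CCGGAAG, for NRF1, GCGCATGC, for NFY, CCAAT, for Sp factors, GGGCGG, for YY1, AAGATGGC, for the core promoter box, TATAAA, for the cyclic AMP element (CRE), TGACGTCA, and for the E-box, CACGTG.
Uqcrh/Lrrc41, chr4:116075071-116075268, 7 libraries: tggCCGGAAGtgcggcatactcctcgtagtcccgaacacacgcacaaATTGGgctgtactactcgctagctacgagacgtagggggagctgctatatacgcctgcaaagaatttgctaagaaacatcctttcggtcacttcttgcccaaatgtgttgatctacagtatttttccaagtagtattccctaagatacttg
Slc26a8/Mapk14, chr17:28691274-28691341, 7 libraries: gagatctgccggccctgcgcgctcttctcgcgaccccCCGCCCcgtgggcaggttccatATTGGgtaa
Vps26b/Ncapd3, chr9:27030095-27030164, 7 libraries: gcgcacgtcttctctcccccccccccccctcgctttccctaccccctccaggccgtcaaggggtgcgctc
Ccdc92/Zfp664, chr5:124862500-124862704, 6 libraries: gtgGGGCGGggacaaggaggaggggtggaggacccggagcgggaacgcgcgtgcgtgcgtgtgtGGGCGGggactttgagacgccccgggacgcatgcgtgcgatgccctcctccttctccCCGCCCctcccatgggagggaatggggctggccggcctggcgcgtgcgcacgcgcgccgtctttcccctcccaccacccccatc
Plcb3/Ppp1r14b, chr19:6975007-6975047, 3 libraries: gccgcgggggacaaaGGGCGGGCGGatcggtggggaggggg
Zbtb26/Rabgap1, chr2:37443173-37443262, 3 libraries: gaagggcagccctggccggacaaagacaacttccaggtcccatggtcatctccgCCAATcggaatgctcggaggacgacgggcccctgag
Brca1/Nbr1, chr11:101551956-101552106, no library: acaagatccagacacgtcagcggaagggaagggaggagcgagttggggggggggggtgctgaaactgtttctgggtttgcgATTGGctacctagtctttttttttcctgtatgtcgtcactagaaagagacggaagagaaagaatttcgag
Sirt3/Psmd13, chr7:140882310-140882393, no library: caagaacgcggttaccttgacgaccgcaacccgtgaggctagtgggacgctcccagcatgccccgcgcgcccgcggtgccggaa
Aimp2/Pms2, chr5:143909840-143909900, no library: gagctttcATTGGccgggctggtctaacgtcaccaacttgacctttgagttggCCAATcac
The gap of Uqcrh/Lrrc41, between a subunit of respiratory complex III and a leucine-rich repeat gene, held 1 ETS match and 1 NFY match in 198 bp. The gap of Ccdc92/Zfp664 held 3 Sp matches and 23 CpG dinucleotides in 205 bp. Vps26b/Ncapd3, with a peak in 7 libraries, had no match in its 70 bp, and Sirt3/Psmd13, with a peak in none, also had no match in 84 bp, with a CpG observed-to-expected ratio of 1.20. Aimp2/Pms2, with a peak in none, had 2 NFY matches in 61 bp and a ratio of 0.478. A match is a string of letters and no evidence of binding.

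Divergent pairs carried H3K9ac peaks more often than isolated starts in the lists as deposited. A peak lay at 66.7% (62.7 to 70.6), 61.4%, 16% and 1.06% of divergent pairs in KI1 to KI4. In WT1 to WT4 the share was 52.8% (48.6 to 57.0), 46.1%, 6.51% and 1.58%. At the 9461 isolated starts the shares were 34.3%, 31.5%, 10.5% and 0.983% in the KI and 28.6%, 25.5%, 5.49% and 1.57% in the WT libraries. The share was higher at divergent pairs in 8 of 8 libraries, by 14.2 ± 14.0 percentage points (SD, n = 8). In WT4 it was higher by only 0.0096 points, with a peak at 9 divergent pairs, and KI4 had a peak at 6. The direction in these libraries thus rests on very few pairs. The exact sign-change test over libraries, two-sided, gave p = 0.00781, the smallest that 8 libraries allow, and p = 0.0234 after Benjamini-Hochberg adjustment over 3 orientations. Within replicates 1 and 2 the difference was 26.8 points. With genes of 5 kb or longer only it was 12.3 points and the adjusted p was 0.0938, which ends the call. The comparisons by orientation were not repeated with lists cut to equal length, which was done for all close pairs together only. A divergent window holds 2 starts and an isolated window 1. The chance that at least 1 of 2 independent isolated starts has a peak would be 56.8%, 53.1%, 19.9% and 1.96% in the KI and 49.0%, 44.5%, 10.7% and 3.12% in the WT libraries. The observed shares lay above these values in the 4 libraries of replicates 1 and 2 and below them in the 4 others.

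**Figure D1:**
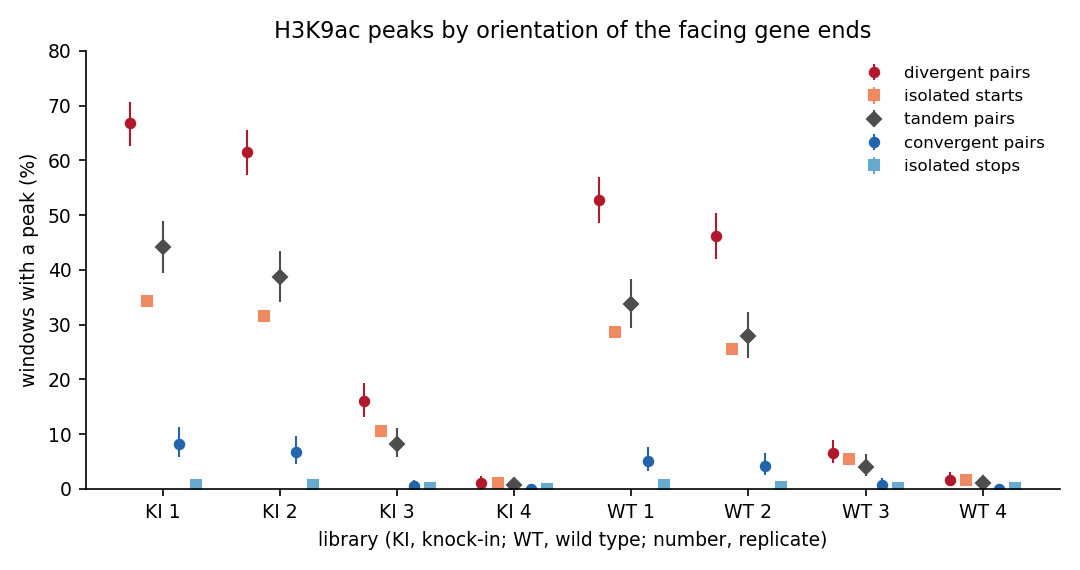
Share of windows with a peak (%, y axis) in each library (x axis), for divergent, tandem and convergent pairs, isolated starts and isolated stops; bars are exact 95% binomial intervals, which cover counting error only. Divergent pairs sit highest in replicates 1 and 2, from 46.1% to 66.7%, and isolated stops lie under 1% in each library.

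The call between divergent pairs and isolated starts was also lost when both were limited to CpG-rich starts. A start was called CpG-rich if the observed-to-expected CpG ratio of its RefSeq promoter, 250 bp before to 50 bp after the start, was at least 0.6. At 503 divergent pairs with at least 1 such start, the shares were 69.98%, 64.4%, 17.1% and 0.994% in the KI and 54.9%, 47.7%, 6.56% and 1.59% in the WT libraries. At 2974 such isolated starts they were 67.5%, 62.5%, 21.9% and 1.71% in the KI and 56.4%, 51.2%, 11.5% and 3.497% in the WT libraries. Divergent pairs were higher in KI1 and KI2 only, and lower in the 6 other libraries. The mean difference was -1.62 points, with an adjusted exact sign-change p of 0.203. Starts with no RefSeq promoter entry within 100 bp were not sorted. Both promoters were matched at 396 of the 568 divergent pairs. A pair counted below as without a CpG-rich start may therefore hold 1 start that was not assessed. Among the other starts the groups differed widely in size. A peak lay at 37.3%, 37.3%, 5.88% and 1.96% of 51 divergent pairs in knock-in, against 8.33%, 7.39%, 1.88% and 0.117% of 4264 isolated starts. In wild type it was 31.4%, 29.4%, 3.92% and 0 of 51 pairs, against 6.33%, 5.63%, 0.821% and 0.164%. Here a count of 0 was taken to allow up to 3 of 51 pairs, or 5.88%, in place of an exact limit. The comparison by CpG content was chosen after seeing the data.

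**Figure D2:**
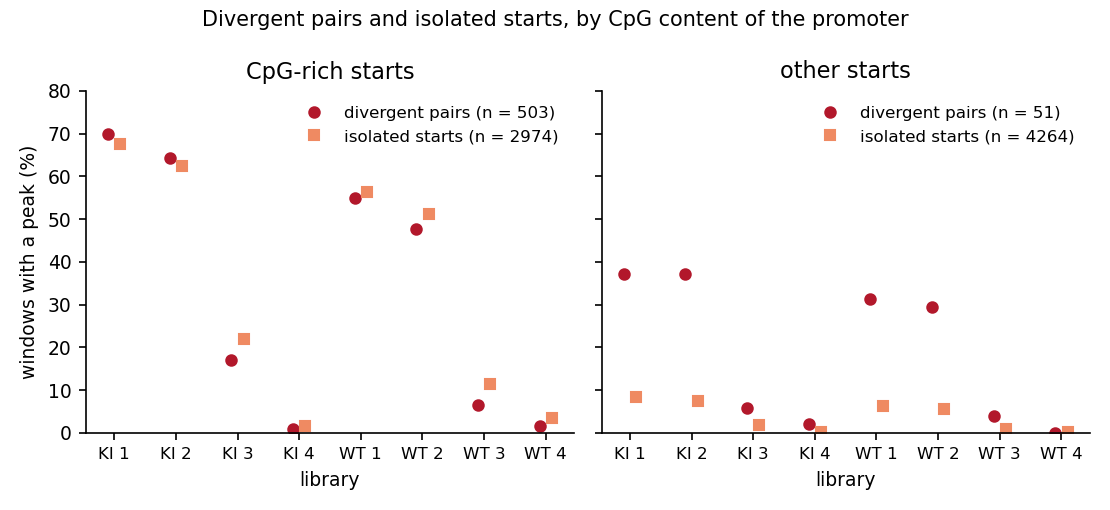
Share of windows with a peak (%, y axis) in each library (x axis) at divergent pairs and isolated starts. On the left at least 1 matched promoter is CpG-rich, and on the right no matched promoter is. On the left the difference, divergent minus isolated, runs from -4.97 to 2.495 points, while on the right 51 divergent pairs lie above 4264 isolated starts in replicates 1 and 2.

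The promoters of divergent pairs differed in composition from those of isolated starts. Of 950 divergent promoters matched in the RefSeq table, 89.3% were CpG-rich and the median CpG ratio was 0.858. Of 7238 isolated promoters 41.1% were CpG-rich, with a median ratio of 0.451. Among isolated starts with a peak in at least 1 library the CpG-rich share was 83.2%, and among those with none it was 16.4%. The ETS letters CCGGAAG were in 29.6% of divergent promoters, in 8.59% of isolated promoters, in 15.3% of isolated promoters with a peak, and in 8.86% of all 32851 promoters in the table. The YY1 letters AAGATGGC were in 9.37%, 2.39%, 4.48% and 2.75% of these 4 sets. The letters TATAAA were in 5.47%, 17.3%, 6.02% and 13.6%, and the Sp letters GGGCGG in 68.8%, 41.8%, 75.1% and 35.7%. The NRF1 letters were in 6.84%, 3.07%, 6.80% and 2.71%, the CRE letters in 3.89%, 2.18%, 3.81% and 1.79%, and the E-box letters in 11.3%, 7.49%, 11.6% and 7.15%. Among divergent promoters, the NFY letters CCAAT were in 66.0% of the 206 without a peak and in 41.4% of the 744 with one. For ETS the order was opposite, with 20.4% and 32.1%. At isolated starts NFY was in 43.0% without and 38.0% with a peak. Both promoters of a pair share sequence, so these shares are descriptions with no test.

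Tandem pairs, with 1 start and 1 3′ end at the gap, were not shown to differ from isolated starts. A peak lay at 44.1%, 38.7%, 8.11% and 0.676% of tandem pairs in KI1 to KI4 and at 33.8%, 27.9%, 4.05% and 1.13% in wild type. These were above isolated starts in the 4 libraries of replicates 1 and 2, by a mean of 6.17 points, and below in the 4 others. Over all libraries the difference was 2.51 ± 4.47 points (SD, n = 8), with an exact sign-change p of 0.180 after adjustment. With genes of 5 kb or longer only it was -1.02 points, and with CpG-rich starts only -1.84 points. The peaks lay downstream. The median distance of the peak centre past the start of the downstream gene was 287.5 and 294.5 bp in KI1 and KI2 and 325 and 301.75 bp in wild type. The centre lay on that side at 80% to 88.9% of tandem pairs with a peak in 7 libraries and at 66.7%, 2 of 3 pairs, in KI4. At isolated starts the centre lay a median of 325 to 404.5 bp inside the gene.

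Convergent pairs, where 2 gene 3′ ends meet, rarely had a peak, yet more often than isolated stops in the long lists. The shares were 8.20% (5.78 to 11.2), 6.79%, 0.468% and 0% in KI1 to KI4 and 5.15% (3.26 to 7.70), 4.22%, 0.703% and 0% in wild type. With 427 pairs, a count of 0 allows a share of up to 0.703%. At 8313 isolated stops the shares were 0.782%, 0.734%, 0.132% and 0.0241% in the KI and 0.722%, 0.385%, 0.120% and 0.0722% in the WT libraries. The difference was 2.82 ± 2.996 points (SD, n = 8), above 0 in 6 libraries and below 0 in both replicate 4 libraries. The exact sign-change p was 0.0313 and 0.0469 after adjustment, and it was 0.0938 after adjustment without any 1 of the libraries of replicates 1, 2 and 3. In KI1 the shorter gene of a convergent pair had a median length of 2364 bp with a peak and 7845 bp without. The peak reached an annotated start, of the pair or of any other gene, in 16 of 35 pairs. That count was 20 of 29 in KI2, 11 of 22 in WT1 and 7 of 18 in WT2. At isolated stops it was 31 of 65, 27 of 61, 21 of 60 and 15 of 32 in these libraries. At the 410 convergent pairs with no annotated start in the window the share was 7.32% in KI1 and 4.63% in WT1, against 0.775% and 0.735% at such isolated stops. Limited to genes of 5 kb or longer, a comparison chosen after seeing the data, the convergent shares were 3.75% and 2.62% in KI1 and KI2 and 2.996% and 1.87% in wild type. Isolated stops of genes of 5 kb or longer had 0.322%, 0.383%, 0.429% and 0.184% in the same libraries. The difference over all 8 libraries was then 1.20 points with an adjusted exact sign-change p of 0.188. With a flank of 500 bp in place of 1 kb it was 1.56 points (adjusted exact sign-change p = 0.0938). When a peak had to lie mostly in the window, or to cover most of it, the difference over all 427 pairs was 1.44 points.

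Over all orientations, a peak lay at 41.0% (38.9 to 43.2), 36.8%, 8.41% and 0.548% of close pairs in KI1 to KI4. In wild type it was 31.5% (29.4 to 33.5), 26.7%, 3.98% and 0.896%. Isolated ends had 18.9%, 17.4%, 5.63% and 0.519% in the KI and 15.8%, 13.9%, 3.04% and 0.916% in the WT libraries. The pairs were higher in 7 of 8 libraries, by 9.22 ± 9.30 points (SD, n = 8), with a two-sided exact sign-change p of 0.0156, and by 17.5 points within replicates 1 and 2. When each list was cut to its 1266 peaks of highest score the difference was 0.0285 points, with an exact sign-change p of 0.805. With only the peaks above each list's median score it was 4.03 points. Of the 2009 pairs, 965 had a peak in at least 1 library, 401 in all 4 libraries of replicates 1 and 2, 8 in 7 libraries and 2 in all 8. No library had a peak at 21.8% of divergent, 48.9% of tandem and 89.7% of convergent pairs, nor at 61.3% of isolated starts. At the edge of the distance rule, the 87 pairs with a gap of 900 bp or more had shares of 24.1%, 19.5%, 1.15% and 0% in the KI and 19.5%, 13.8%, 0% and 0% in the WT libraries. The 89 excluded pairs with a gap of 1000 bp or up to 100 bp more had 24.7%, 24.7%, 4.49% and 0% in the KI and 16.9%, 17.98%, 2.25% and 0% in the WT libraries. Divergent pairs were only 3 of the former and 4 of the latter.

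Peaks at close pairs ranked lower within their lists than peaks at isolated ends. By the authors' score for each peak, the median percentile of the best peak was 50.2, 57.4, 60.2 and 44.2 in KI1 to KI4, against 62.6, 65.5, 64.8 and 45.7 at isolated ends. In wild type it was 59.0, 48.7, 52.5 and 53.7, against 69.5, 62.1, 63.0 and 53.5. The pairs were lower in 7 of 8 libraries, with a difference of -7.59 ± 5.08 percentile points (SD, n = 8) and an exact sign-change p of 0.0156. Divergent pairs against isolated starts gave a mean of -8.64 percentile points and the same p. The median width of the widest peak was 1294 bp at pairs and 1358 bp at isolated ends in KI1, and 1235.5 and 1322 bp in WT1. Over the 8 libraries the pairs were narrower in 7, with a difference of -36 ± 37.8 bp (SD, n = 8). The exact sign-change p was 0.0391, and it was 0.0781 without any 1 of KI1 to KI3 or WT1 and WT2. For divergent pairs against isolated starts the width difference was -19.3 bp, a comparison chosen after seeing the data. Lists differ in length, so a percentile compares peaks only within a library.

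A single broad peak usually reached both starts of a divergent pair. Of the divergent pairs with a peak, 74.4% and 74.5% in KI1 and KI2 and 69.0% and 63.4% in WT1 and WT2 had 1 peak over both starts. Separate peaks that each covered a start were found in 0.333% to 1.32% in these libraries. A peak covered 1 start only in 14.3% to 17.2%, and neither start was covered in 9.50% to 18.7%. In the narrow lists 1 peak reached both starts at 5 of 91 pairs in KI3, 1 of 6 in KI4 and none in WT3 and WT4. The share with 1 such peak was lower at longer gaps. In KI1 it was 87.0% for gaps up to 100 bp, 69.2% above that up to 300 bp, 53.7% above that up to 600 bp, and 23.8%, 5 of 21 pairs, over 600 bp. In WT1 it was 81.5%, 67.8%, 51.4% and 5.26%, the last 1 of 19 pairs. The share of divergent pairs with any peak did not follow the gap in that way, at 70.2%, 61.6%, 65.1% and 70% in KI1 and 55.1%, 45.8%, 58.7% and 63.3% in WT1.

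**Figure D3:**
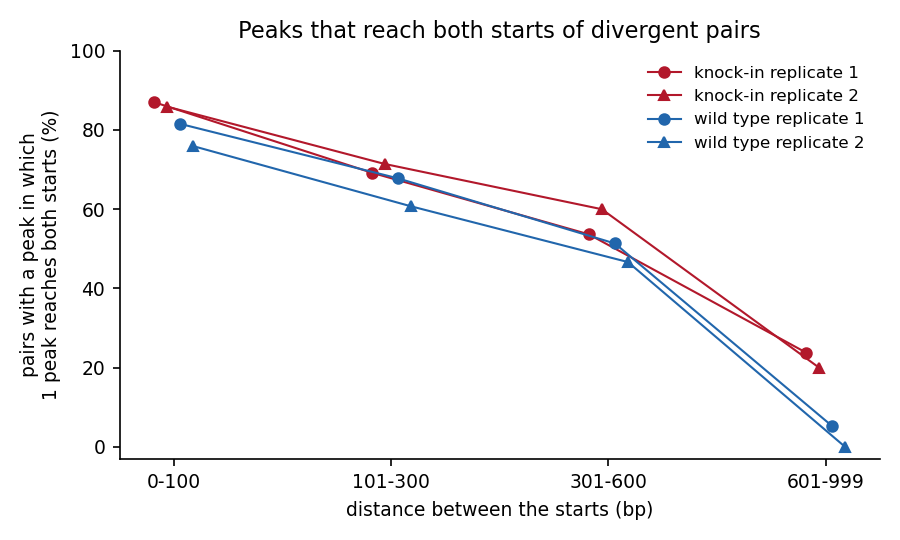
Share of divergent pairs with a peak in which 1 peak reaches both starts (%, y axis) by the distance between the starts (bp, x axis) in the 4 libraries with broad peaks. Each line falls from 75.9% to 87.0% in the shortest class to 0% to 23.8% in the longest, which holds 16 to 21 pairs with a peak.

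The reach of a peak over both starts was measured from each start, and its sides were then sorted by length, so the longer must exceed the shorter. The peak reached a median of 900 bp on its longer side and 432 bp on its shorter side in KI1. The values were 887 and 396.5 bp in KI2, 899 and 374 bp in WT1, and 778.5 and 311.5 bp in WT2. The longer side was at least 2 times the shorter in 48.2% to 63.9% of them. The gene on the longer side was the same in 73.7% to 81.4% of the pairs that 2 of these libraries shared. By gene length the reaches lay close, with medians of 716 bp into the longer gene and 707.5 bp into the shorter in KI1, 664.5 and 672.5 bp in KI2, 670 and 651 bp in WT1, and 546 and 544.5 bp in WT2. The best narrow peak of KI3 lay on the longer side of the broad peak in 68.1% to 82.4% of shared pairs, and that of WT3 in 80% to 88%. The longer side held a mean of 66.2% to 71.7% of the summed reach at the pairs of KI3 and 66.4% to 71.6% at those of WT3, and no test was made of the difference. The centres of narrow peaks were compared with the length of the gap. In KI3 the centres of 5 of 114 peaks lay in the gap, 4.39% of peaks against 8.93% of the length of these regions. In WT3 none of 42 did, where the gap was 8.62% of the length. In KI4 it was 1 of 6 peaks, against 7.96%, and in WT4 none of 9, against 8.46%. At gaps of 300 bp or less, 4.82% of the 83 peaks in KI3 lay in the gap, against 4.54% of the length, and none of 32 in WT3, against 4.08%. At gaps over 300 bp the counts were 1 of 31 and 0 of 10, against 21.2% and 22.7% of the length.

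Both pairs with a peak in all 8 libraries had long gaps. Usf2/Lsr (gap 818 bp, chr7:30955951-30958770) joins the gene of upstream stimulatory factor 2, a transcription factor that binds E-boxes, with that of the lipolysis-stimulated lipoprotein receptor. Its widest peak measured 2795, 2156, 504 and 134 bp in KI1 to KI4 and 2172, 2346, 188 and 138 bp in WT1 to WT4. Vac14/Mtss2 (tandem, gap 709 bp, chr8:110719398-110722108) had widths of 2391, 2250, 151 and 185 bp in the KI and 2873, 2385, 238 and 154 bp in the WT libraries. Its peaks were centred 631 to 1318 bp past the start of Mtss2, while Vac14 ends upstream. Both pairs were broad in replicates 1 and 2 and narrow in replicates 3 and 4 of both genotypes.

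The 8 pairs in 7 libraries were Jund/Iqcn, Pcid2/Cul4a, Uqcrh/Lrrc41, Ccni/2010109A12Rik, Smarcd2/Tcam1, Slc26a8/Mapk14, Vps26b/Ncapd3 and Gpsm3/Pbx2. At Jund/Iqcn (chr8:70699616-70702321) the largest peak of each long list at the pair lay over Jund, a short gene for a subunit of the AP-1 transcription factor, at percentiles 99.8 and 99.4 in the KI and 99.8 and 99.8 in the WT libraries. At Uqcrh/Lrrc41, whose gap is printed above, every peak was centred on the Lrrc41 side, 255 to 973.5 bp past its start. At Slc26a8/Mapk14, where Mapk14 encodes the stress kinase p38 alpha, every peak was centred 159 to 510 bp into Mapk14. Smarcd2/Tcam1 joins a subunit of the SWI/SNF chromatin remodelling complex with Tcam1 across 21 bp. Its widths were 1810, 1587 and 432 bp in KI1 to KI3 and 1297, 1224, 105 and 168 bp in WT1 to WT4, all centred on the Smarcd2 side.

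**Figure D4:**
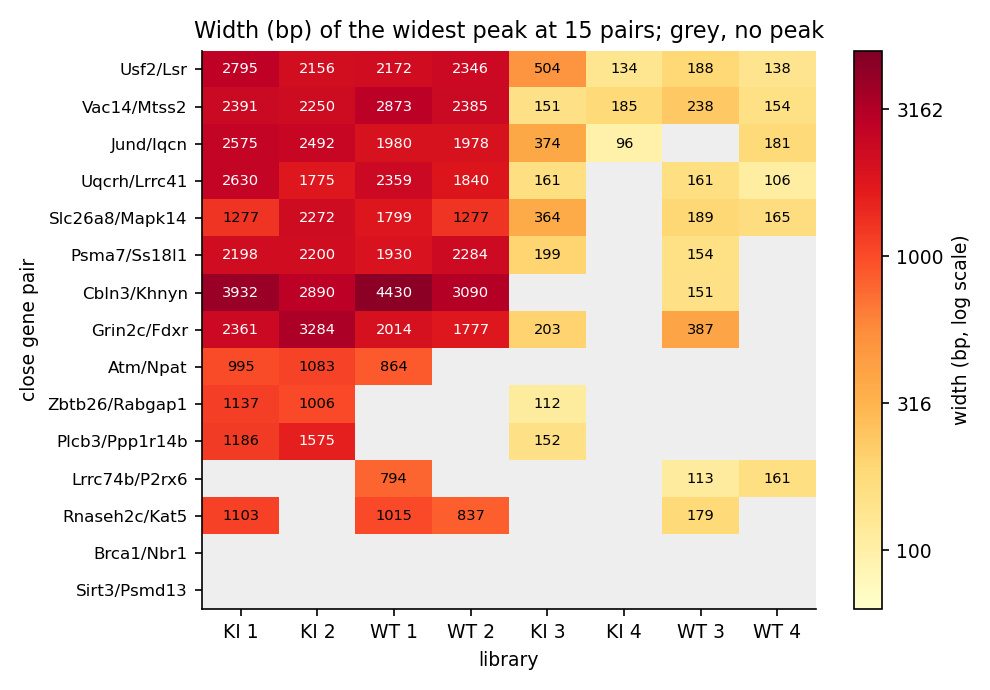
Width in bp of the widest peak (colour, log scale, and printed value) at 15 close pairs (rows) in the 8 libraries (columns; KI, knock-in; WT, wild type), with grey for no peak. The 4 columns on the left are the libraries with broad peaks, and Brca1/Nbr1 and Sirt3/Psmd13 are grey in each column.

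The widest peaks at close pairs lay in a cluster of predicted genes on chromosome 6. Gm40365/Gm36327 had widths of 6962 and 12797 bp in KI1 and KI2 and 25897 and 5510 bp in WT1 and WT2, and Gm40364/Gm40363 shared the same peak in KI2 and WT1. Genes of such clusters can be near-identical copies that share reads, so these values are uncertain. Next came Cbln3/Khnyn (divergent, gap 555 bp, chr14:55883256-55885812). Cbln3 encodes a cerebellin secreted by granule neurons. Its peak was 3932 and 2890 bp wide in KI1 and KI2 and 4430, 3090 and 151 bp in WT1, WT2 and WT3. Pagr1a/Prrt2, 1700056E22Rik/Dusp10 and Rhof/Setd1b were the other pairs among the 6 widest, with widths of 1728 to 4394 bp in replicates 1 and 2. The tandem pair Grin2c/Fdxr was not among the 6 widest and is given as the other granule marker pair with a peak. Grin2c encodes an NMDA receptor subunit of granule neurons and Fdxr ferredoxin reductase. The widths at this pair were 2361, 3284 and 203 bp in KI1 to KI3 and 2014, 1777 and 387 bp in wild type.

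Of 23 pairs known as close neighbours, 10 met the distance rule, and these had few peaks. Atm/Npat, whose shared promoter serves a DNA damage kinase and a regulator of histone genes, had a peak of 995 and 1083 bp in KI1 and KI2 and of 864 bp in WT1, each over both starts. Mcm4/Prkdc had 1 peak, of 903 bp, in KI1, and Mrps12/Sars2 had 1, of 678 bp, in WT2. No library had a peak at Brca1/Nbr1, Sirt3/Psmd13, Aimp2/Pms2 or Psmb9/Tap1. Rnaseh2c/Kat5, also among the 10, is convergent and described with the genotypes. Replicates 3 and 4 of both genotypes had no peak at the other 9 pairs.

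By function, pairs with a member in oxidative phosphorylation were held in at least 1 library more often than all close pairs. In all 4 libraries of replicates 1 and 2 they were held about as often as all close pairs. In at least 1 library 37 of 50 had a peak, against 965 of all 2009 close pairs (48.0%), and the median was 2 libraries against 0. The 50 included 25 divergent pairs, and of all 568 divergent pairs 444 (78.2%) had a peak in at least 1 library. Pairs with a mitochondrial ribosomal protein had a peak in 24 of 34, with a cytosolic ribosomal protein in 21 of 31, and with a tRNA synthetase in 10 of 15. DNA repair pairs had one in 23 of 41, histone pairs in 15 of 28, RNA polymerase pairs in 9 of 15, proteasome pairs in 9 of 20, and pairs with a SAGA, ATAC or TFIID subunit in 6 of 9. Pairs with a Zfp zinc finger gene had one in 24 of 39. None of 5 olfactory or vomeronasal receptor pairs and none of 4 keratin pairs had a peak. No clustered protocadherin belonged to a pair. The lists differ in their share of divergent pairs, and these counts have no test. Counts of pairs held in all 4 libraries of replicates 1 and 2 put the lists in another order. They were 7 of 15 for tRNA synthetases, 4 of 9 for SAGA, ATAC and TFIID subunits, 14 of 39 for Zfp genes, 4 of 15 for RNA polymerases and 7 of 28 for histones. They were 10 of 50 for oxidative phosphorylation, 5 of 34 for mitochondrial ribosomal proteins, 6 of 41 for DNA repair, 1 of 20 for the proteasome and 1 of 31 for cytosolic ribosomal proteins, against 401 of 2009 for all close pairs.

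Among the leading pairs of these lists, Psma7/Ss18l1 of the proteasome list, 18 bp apart, had widths of 2198, 2200 and 199 bp in KI1 to KI3 and 1930, 2284 and 154 bp in wild type. Psma7 encodes a subunit of the proteasome core and Ss18l1 a neuronal subunit of chromatin remodelling complexes. Iars2/Bpnt1 of the tRNA synthetase list, 8 bp apart, had 850, 1123 and 229 bp in KI1 to KI3 and 1440 and 1228 bp in WT1 and WT2. Rpl36al/Mgat2, a ribosomal protein gene and a glycosyltransferase gene, had 2077, 2054 and 222 bp in the KI and 1728 and 1426 bp in the WT libraries. Taf5l/Urb2, with a subunit of SAGA, had 1637, 1784 and 79 bp in the KI and 1338 and 1295 bp in the WT libraries. Tada3/Arpc4, with another SAGA subunit, had 1676 and 988 bp in KI1 and KI2 and 1471 and 1219 bp in wild type. Polk/Cert1, with a DNA polymerase of translesion synthesis, had 1402, 1210 and 139 bp in the KI and 1292, 941 and 136 bp in the WT libraries. At these pairs replicate 4 of both genotypes had no peak.

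The series asks whether H3K9ac differs between knock-in and wild type cerebella, and at close pairs no difference in the share with a peak was detected. The share was 21.7 ± 20.2% (SD, n = 4) in KI and 15.8 ± 15.6% (SD, n = 4) in WT libraries (exact permutation test, two-sided, p = 0.571). With 4 libraries against 4 that test cannot give a p below 0.0286. The difference of 5.92 points became -0.0498 with lists of equal length and -0.519 without KI1. The means were 38.9% and 29.1% within replicates 1 and 2 and 4.48% and 2.44% within replicates 3 and 4. At isolated ends the share was 10.6 ± 8.95% (SD, n = 4) against 8.41 ± 7.52% (SD, n = 4), and the exact permutation test gave p = 0.6. Relative to isolated ends of the same library, the log2 odds of a peak at close pairs were 1.58, 1.47, 0.63 and 0.14 in KI1 to KI4. They were 1.29, 1.18, 0.41 and 0.0028 in wild type. The knock-in value was higher in each of 4 same-numbered comparisons, while the groups overlapped, with a mean difference of 0.23 and an exact permutation p of 0.571. With the replicate number as a block the exact sign-change p was 0.125, the smallest it allows. The difference was -0.0221 with lists of equal length, -0.00807 with only the peaks above each list's median score, and -0.00754 without WT4. For divergent pairs against isolated starts the log2 odds were 1.16 ± 0.84 (SD, n = 4) in KI and 0.79 ± 0.71 (SD, n = 4) in WT libraries, with an exact permutation p of 0.543, or 0.814 after adjustment. The share of held pairs with 1 peak over both facing ends was 30.5 ± 27.0% (SD, n = 4) against 24.2 ± 28.1% (SD, n = 4), and the exact permutation test gave p = 0.514. That difference of 6.29 points was -1.79 to -1.43 points without any 1 of KI1, KI2, WT3 and WT4.

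**Figure D5:**
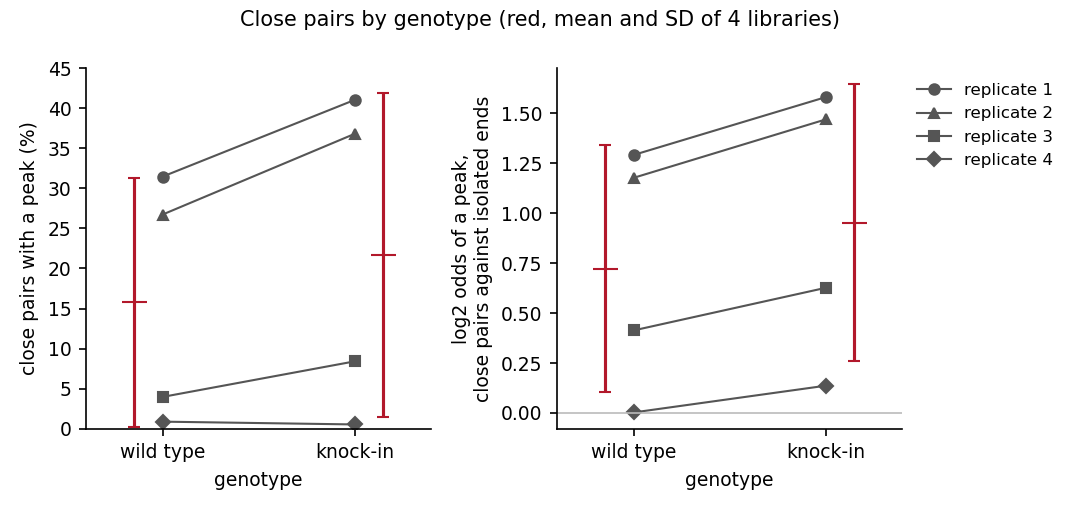
Share of close pairs with a peak (%, left) and log2 odds of a peak at close pairs against isolated ends (right) in wild type and knock-in libraries (x axis), with lines joining libraries of the same replicate number and red marks for the mean and SD of 4 libraries. Replicates 1 and 2 lie far above replicates 3 and 4 in both genotypes, and the genotypes overlap.

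No close pair was called as held more often in either genotype. A conditional exact test, which allows for the length of each list, was run on 5776 windows held by 1 to 7 libraries, 963 of them close pairs. It called 0% of these windows and 0 pairs after Benjamini-Hochberg adjustment, with the smallest adjusted p at 0.940. At an unadjusted p under 0.05 there were 14 pairs (1.45%) and 37 of 4813 isolated ends (0.769%). Fisher's exact test also called 0 and cannot give a p below 0.143 for any pattern seen here. Of the pairs, 502 were in more knock-in than wild type libraries, 115 in more wild type libraries and 348 in as many of each, and isolated ends were 2205, 611 and 2011. In both knock-in but neither wild type library of replicates 1 and 2 were 83 pairs, and 6 showed the reverse. This pattern was not counted at isolated ends, so the counts of 83 and 6 cannot be read as particular to close pairs. Isolated ends with a peak also numbered more in KI1 and KI2, at 4220 and 3886, than in WT1 and WT2, at 3533 and 3109. The KI1 list was shorter than that of WT1, while the lists of KI2 and KI3 were longer than those of WT2 and WT3 and that of KI4 shorter than that of WT4. The part of list length in these counts was not tested.

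A peak in at least 3 knock-in and no wild type library was seen at 4 pairs. Of all 5776 windows 0.208% showed this pattern. The pairs were Zbtb26/Rabgap1, Cnpy4/Mblac1, 1110032A03Rik/Fdxacb1 and Plcb3/Ppp1r14b, each in KI1, KI2 and KI3, with a conditional exact p of 0.00873 before adjustment. At Plcb3/Ppp1r14b, whose gap is printed above, Plcb3 encodes a phospholipase C and Ppp1r14b an inhibitor of protein phosphatase 1. The peaks were 1186, 1575 and 152 bp wide and each reached both starts, 41 bp apart. At Zbtb26/Rabgap1 the widths were 1137, 1006 and 112 bp, at percentiles 8.0 and 32.5 in KI1 and KI2. At 1110032A03Rik/Fdxacb1, whose starts are 1 bp apart, they were 702, 945 and 137 bp, at percentiles 15.7 and 5.4 in replicates 1 and 2. Cnpy4/Mblac1, a tandem pair, had 1430, 1126 and 142 bp. The next p was shared by 10 pairs, each in 3 KI libraries and 1 WT library (conditional exact p = 0.0504), of which Atp5h/Kctd2 and Adprhl2/Tekt2 came first by alphabet. Atp5h, a subunit of ATP synthase, had 2563, 2186 and 165 bp with Kctd2 in KI1 to KI3 and 1315 bp in WT2.

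In the other direction, Lrrc74b/P2rx6 had a peak in 3 wild type and no knock-in library, a pattern shown by 0.0173% of all windows, which is this pair alone. The widths were 794, 113 and 161 bp in WT1, WT3 and WT4, and the conditional exact p was 0.000163, or 0.940 once adjusted. Without WT2 its adjusted p was 0.00317, and it was then the one pair called. P2rx6 encodes an ATP-gated ion channel. All 3 peaks were centred 865 to 964.5 bp inside Lrrc74b, near the outer edge of the region (chr16:17560328-17562867), and none reached either start. Copg2/Tsga13, H2-Ke6/Slc39a7 and Rnaseh2c/Kat5 were each in 1 KI library and 3 WT libraries (conditional exact p = 0.00335 before adjustment). At Rnaseh2c/Kat5 (convergent, gap 54 bp, chr19:5601959-5604014), the widths were 1103 bp in KI1 and 1015, 837 and 179 bp in WT1 to WT3. Each of these peaks was centred 600 to 818 bp from the 3′ end of Rnaseh2c, a gene of 1087 bp that encodes a subunit of ribonuclease H2, and none reached Kat5, which encodes an acetyltransferase. Lrrc51/Numa1 and Atp6v1d/Eif2s1 were in WT1 and WT2 alone, with a conditional exact p of 0.0305 that 6 pairs shared.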

How the data were processed

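Each library was deposited by the authors as a list of peaks with a start, an end and a score. Bowtie2 and build mm10 are named per the submitters' processing notes, and MACS in Galaxy, run on each library alone, per the file headers. Of the MACS version, its settings, an input control and the scale of the score, nothing is said in the labels or headers. So the deposited score served for ranks inside a list and nothing else. A start below 0, found in 15 peaks, was set to 0.

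Gene positions came from RefSeq, GRCm38.p6, the assembly that mm10 names, and strand and promoter sequence from the RefSeq promoter table. Pairs, isolated ends and peak overlaps were computed with Python 3.11.15, pandas 2.3.3, numpy 2.4.6 and SciPy 1.17.1 and plotted with matplotlib. Library differences were tested by exact enumeration of the 256 sign changes, and genotypes over the 70 assignments of 4 libraries against 4. For log2 odds 0.5 was added to each cell. Per window, a conditional exact test held its count of peak-bearing libraries constant, with detection odds per library from a Rasch model. It used Benjamini-Hochberg adjustment over close pairs and isolated ends together, with a threshold of 0.05, and was tested on simulated data. Groups and replicate numbers came from the sample titles. The deviations of same-numbered libraries from their genotype means correlated at 0.442, 0.335, 0.374 and 0.741 across windows, so by a rule of every value above 0.1 the numbers were taken to pair libraries. Differently numbered libraries also correlated, at 0.321 and 0.389 among replicates 1 and 2 and at 0.329 and 0.559 among replicates 3 and 4, so knock-in replicate 2 lay closer to wild type replicate 1 than to its own number. The data thus part replicates 1 and 2 from 3 and 4, and the numbers within them less clearly; the labels give no pairing.

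Pairs named were the members among 23 textbook close pairs, the 10 in the most libraries, the 6 in each direction with the smallest conditional p, the 6 widest, and up to 3 of each list. Not every pair this rule gives is reported here. Lists by symbol covered oxidative phosphorylation, cytosolic and mitochondrial ribosomal proteins, proteasome, tRNA synthetases, RNA polymerases, histones, DNA repair, SAGA, ATAC and TFIID, Zfp genes, olfactory and vomeronasal receptors, keratins, protocadherins and cerebellar cell types. Members and lists were chosen with earlier results of these data known.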

Additional observations from a re-analysis of the deposited data

Results flagged for a closer look

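In 28 sets of 4 libraries (14 measures in each genotype), 1 had a library far from the others. The median score percentile of the best peak at isolated gene ends was 45.7 in knock-in replicate 4, against 62.6 to 65.5 in knock-in replicates 1 to 3. Its gap to the nearest library was 0.853 of the range of the group. Chance flags about 1 set in 20. At close pairs the same measure was 44.2 in that library, which was not as far from the others.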

How the results depend on the processing

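Of 144 alternative values over 10 results, 111 kept their direction and side of the threshold or their count. The excess of close pairs over isolated ends had p of 0.125, the smallest possible, with 17.5 points in replicates 1 and 2 only, and was 0.0285 points with lists of equal length; leaving out a library gave 7.38 to 10.5 points. In replicates 1 and 2 only, where 4 libraries cannot pass, values were 26.8 points for divergent pairs, 5.43 for convergent pairs, -68.1 bp for width and -11.1 for score percentile. Divergent pairs were at -1.62 points with CpG-rich starts only and 12.3 points with genes of 5 kb or longer (adjusted exact p = 0.0938), and at 11.6 to 16.3 points without a library. Tandem pairs were at -1.84 and -1.02 points with these same limits and 1.47 to 3.21 points without a library. Convergent pairs were at 1.56 points with a flank of 500 bp and 1.20 points with genes of 5 kb or longer, and at 2.16 to 3.23 points without a library. No orientation was run alone with lists of equal length or with only the peaks above each list's median score. Width was -42.6 to -28.8 bp and score percentile -8.71 to -6.77 without a library. Between genotypes, the share of pairs differed by -0.0498 points with lists of equal length and by -0.519 to 13.0 points without a library, lowest without knock-in replicate 1. The log2 odds differed by -0.00807 with only the peaks above each list's median score, -0.0221 with lists of equal length and -0.0075 to 0.50 without a library. The share of peaks over both ends differed by -1.79 to 15.5 points without a library. Called pairs numbered 0, or 1 without wild type replicate 2. The cause of these shifts was not tested. With the replicate block the genotype share differed by 5.92 points (exact p = 0.25) and the log2 odds by 0.23 (exact p = 0.125), with 0 pairs called. The p for the share and the log2 odds cannot go below 0.125, so there the block could change no call. The facing ends of convergent pairs are 3′ ends. No promoter was matched to them, so the limit to CpG-rich starts gave no value for these pairs. Settings on CpG content, gene length and divergent pairs alone were chosen after seeing the data. Depth is unknown, and the replicate 4 lists, with 11 and 18 close pairs, limit what those libraries can show.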

Other observations

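Peaks at close pairs made up 8.08%, 6.78%, 3.86% and 0.948% of the lists of knock-in replicates 1 to 4, and 5.67%, 7.28%, 2.86% and 1.27% of those of wild type replicates 1 to 4. At isolated starts, the median reach of broad peaks was 992.5 bp into the gene and 376 bp upstream in knock-in replicate 1, and 997 and 350 bp in wild type replicate 1. At divergent pairs, the shorter side of a peak over both starts, 432 bp in knock-in replicate 1, also lies inside a gene.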
